A study of Homo sapiens with 24 samples.

Results

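The libraries compared here come from neural progenitor cells (NPCs), the proliferating precursors of neurons and glia, that carried the short hairpin RNA sh4 against KDM2A or the scrambled hairpin NC. They were chosen by their column labels: 5 NPC libraries labelled sh4 and 5 labelled NC, 10 of the 24 libraries of the series. All listed genes that passed a count filter were analysed, 9860 of the 10221 in the NPC table. Every cell in both groups descended from the established line H9 of human embryonic stem cells, was transduced with lentivirus at a multiplicity of infection of 20 and was selected with puromycin at 1 µg/ml, so the NC cells carry a virus and a resistance gene as well. The series also holds 5 NPC libraries of a further KDM2A hairpin, sh1, and 9 libraries of cerebral organoids at day 30, 3 per group. RNA was poly(A) selected and read as 150 bp pairs. One sample label calls the treatment siRNA-4 and the design text calls it a hairpin made from it; neither says whether transduced cells were cloned or whether the libraries within a group are separate cultures. P-values therefore measure only the spread between these libraries, which may be technical.

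KDM2A removes methyl groups from dimethylated lysine 36 of histone H3, a mark of gene-rich open chromatin that is written by the NSD enzymes and ASH1L. Its CXXC zinc finger binds unmethylated CpG, which brings the protein to CpG islands. The series title links the mark to MAPK signalling, the cascade in which growth factor receptors act through RAS, RAF and MEK on the kinase ERK. ERK in turn induces ETS transcription factors and the sprouty proteins and dual-specificity phosphatases that damp the cascade.

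The counts of listed genes were 12.73 to 18.24 M per NC library and 18.92 to 20.07 M per sh4 library. These are not whole library depths, because the NPC table looks like a selection. Between sh1 and NC 9792 of the 9860 genes (99.3%) had an adjusted p under 0.05 (edgeR quasi-likelihood test, p adjusted by Benjamini-Hochberg), and the highest unadjusted p was 0.148. Between sh4 and NC 8679 genes (88%) had one and the highest unadjusted p was 0.998, so the table holds genes that did not move with sh4. The first principal component of the 15 NPC libraries (72.1% of the variance) set NC apart from both hairpins, and the second (14.7%) set sh4 apart from sh1. NC replicate 5 lay nearest to the sh4 libraries on the first component, at -47.55 against -55.21 to -59.05 for the other NC libraries, and its median correlation with its own group was 0.9905 against 0.9942 to 0.9949. No pair of libraries agreed as closely as counting noise allows (the chi-square divided by its degrees of freedom was 3.25 to 33.4 within NC and 4.905 to 14.92 within sh4). Each library was counted as a replicate, although such a spread cannot tell separate cultures from technical repeats.

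Markers of the labelled cell type were present. Of the 10 tested progenitor markers of a list of 15, 5 rose and 1 fell with sh4, and their summed level was 3182 to 3386 CPM in NC and 3871 to 4268 CPM in sh4 (CPM, counts per 1000000 counts of listed genes after TMM scaling). NES, the intermediate filament nestin, was at 2149 CPM with NC and 2694 CPM with sh4. SOX2, SOX3, VIM and HES5 were not analysed here. All 9 pluripotent cell markers of the list were tested, and 7 of them rose while 1, POU5F1, fell. Their summed level was 1214 to 1356 CPM in NC and 1930 to 2129 CPM in sh4. That sum is weighted towards abundant members such as POU5F1. NANOG, PRDM14, TDGF1 and ZFP42 were low in NC, with TDGF1 at 1.05 CPM and ZFP42 at 0.315 CPM. ZFP42 did not reach the level of the count filter in every NC library. In bulk RNA, fewer cells of a type and less RNA per cell cannot be told apart, and neither can more cells and more RNA per cell.

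KDM2A (chromosome 11, 67119269 to 67258087, plus strand, GRCh38, GENCODE release 29) was lower in every sh4 library. It read 198, 183, 202, 185 and 163 CPM in NC replicates 1 to 5 and 92.6, 95.7, 102, 93.8 and 91.3 CPM in sh4 replicates 1 to 5. The groups did not overlap, and NC replicate 5 was the NC library nearest to sh4. The log2 fold change was -0.97 (SE 0.0548, 95% interval -1.08 to -0.85, adjusted p = 7.36e-12, edgeR quasi-likelihood test, Benjamini-Hochberg), just short of the fold threshold used below. Without NC replicate 5 it was -1.01 and passed. The direct difference between sh4 and sh1 was 0.05 (95% interval -0.07 to 0.16, adjusted p = 0.579 in the same test).

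None of the other 10 tested enzymes that write, remove or act on H3K36 methylation was called. ASH1L, a writer of the dimethyl mark, read 165, 139, 170.5, 154 and 135 CPM in NC and 93.1, 84.1, 80.3, 93.3 and 88.7 CPM in sh4 (-0.80 on the log2 scale), and the writer NSD1 had a log2 difference of -0.48. The paralogue KDM2B had a difference of 0.05 (-0.09 with library size scaling) and the trimethyl writer SETD2 one of -0.28. The list of 11, with KDM2A, had a median of -0.28, against 0.03 over all tested genes. Of the 8 tested CXXC proteins, KDM2A among them, none was called, and TET1, a methylcytosine oxidase, had a log2 difference of 0.94.

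A gene was called when its adjusted p was under 0.05 and its log2 fold change was 1 or more in either direction, as the design text sets it. By that rule 1786 of 9860 genes (18.1%) were called between sh4 and NC: 646 rose (6.55%) and 1140 fell (11.6%). The median log2 fold change was 0.03, its quartiles -0.52 and 0.41, and 2491 genes (25.3%) stayed within 1.2-fold. Large changes were fewer: 178 genes rose and 339 fell at least 4-fold, and 14 rose and 34 fell at least 16-fold. Genes that fell were mostly low, with a median of 1.92 log2 CPM, those that rose had a median of 3 and genes that were not called one of 5.8. Together the genes that rose went from 2.39% of the listed counts in NC to 6.24% in sh4, and those that fell from 4.06% to 1.38%. In 7176 genes (72.8%) no sh4 library overlapped any NC library, so a lack of overlap is common in these data. The count filter asked for 0.529 CPM (before TMM scaling) in 5 of the 15 NPC libraries, so a gene nearly absent from NC could pass through a hairpin group alone. Of the 646 genes that rose 165 missed that level in at least 1 NC library, and of the 1140 that fell 346 missed it in at least 1 sh4 library. Counts and medians of the gene lists below cover only members that passed the filter, and they are descriptions.

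**Figure D1:**
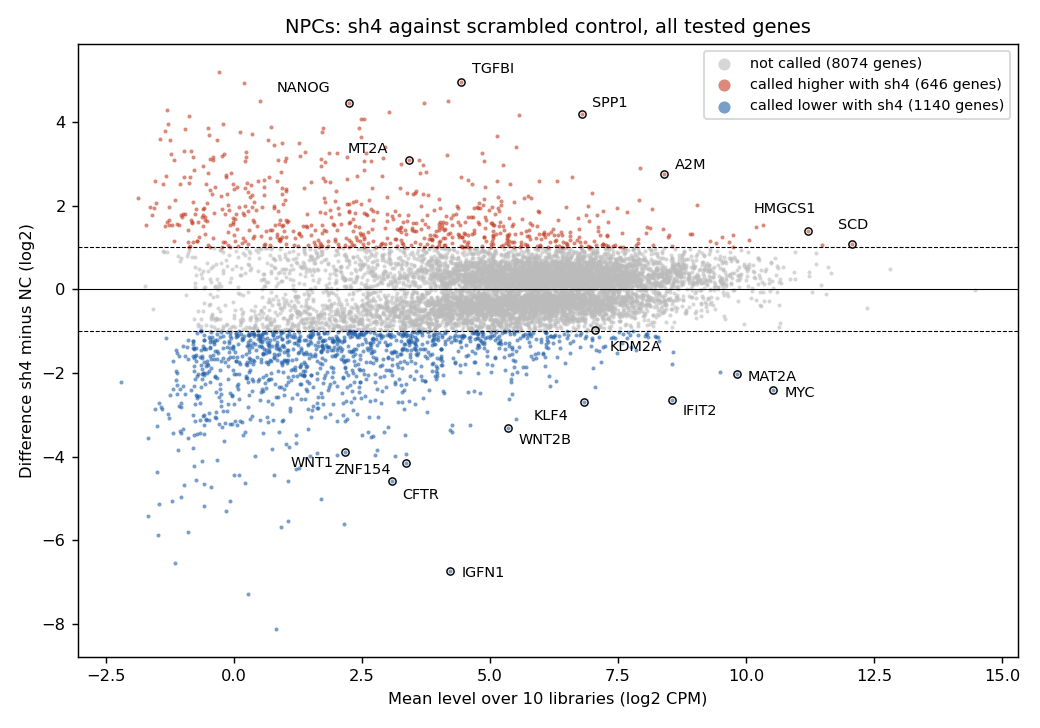
Each point is 1 of 9860 tested genes, with its mean level over the 5 NC and 5 sh4 libraries (x axis, log2 CPM) and its difference sh4 minus NC (y axis, log2); red points were called higher, blue points called lower, and dashed lines mark the fold threshold. IGFN1 (-6.73) and TGFBI (4.96) are labelled near the extremes, KDM2A (-0.97) sits at the lower dashed line, and abundant genes such as MYC and SCD lie far to the right.

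The genes with the highest fold changes among those at a mean of at least 3 log2 CPM encode mainly secreted, matrix or receptor proteins. TGFBI, a secreted matrix protein induced by TGF-beta, read 3.29, 3.5, 4.37, 3.81 and 4.54 CPM in the 5 NC libraries and 119, 118, 79.3, 139 and 148 CPM in the 5 sh4 libraries. SPP1, the secreted phosphoprotein osteopontin, read 26.2, 24.4, 29.7, 25.6 and 24.6 CPM in NC and 588, 441, 339.9, 541 and 470.3 CPM in sh4. In both genes sh4 replicate 3 was the lowest of its group, yet it lay far above the highest NC library. The log2 fold changes were 4.96 (SE 0.154) for TGFBI and 4.19 (SE 0.132) for SPP1. NPR3, the clearance receptor for natriuretic peptides, rose from 2.78 ± 0.402 to 60.9 ± 9.69 CPM (4.45), and CMKLR1, the receptor of the chemoattractant chemerin, from 1.84 ± 0.361 to 34.7 ± 2.48 CPM (4.24). The collagen gene COL12A1 rose by 4.16 and the small matrix proteoglycan LUM by 3.67 on the log2 scale. APLN, the peptide apelin (3.40), KDR, a VEGF receptor (3.25), and IGFBP3, which binds insulin-like growth factors (3.21), completed the secreted and receptor genes of this set, next to BEND4 (3.10). LEFTY2 and MT2A, also among the 12, are described with their groups.

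The lowest fold changes at the same level belonged to genes of varied function. IGFN1, an immunoglobulin-like and fibronectin domain protein known from muscle, read 237, 168, 240.2, 187 and 138 CPM in NC and 2.75, 1.14, 2.17, 1.53 and 1.51 CPM in sh4, a log2 fold change of -6.73 (SE 0.222). CFTR, the chloride channel mutated in cystic fibrosis, read 46.5, 41.1, 41.2, 44.3 and 32.5 CPM in NC and 1.92, 1.55, 2.59, 1.37 and 1.08 CPM in sh4 (-4.59, SE 0.201). In both genes the spread within each group was small beside the gap between the groups. CNTN6, a neuronal adhesion protein, fell by 3.94 and DTX3, a deltex family ubiquitin ligase, by 3.41 on the log2 scale. PWWP3B, which carries a PWWP domain, a fold known in other proteins to bind methylated H3K36, fell from 33.4 ± 2.48 to 2.97 ± 0.302 CPM (-3.49). The KRAB-type zinc finger genes ZNF154 and ZNF334 had fold changes of -4.15 and -3.25. PKHD1L1, C21orf62 and SAMD5 followed at -3.30, -3.35 and -3.24, and the ligand genes WNT10B and WNT2B are described below.

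By change in level rather than fold, lipid genes led the gains and MYC the losses. SCD, the desaturase that makes monounsaturated fatty acids, rose from 2972 ± 219 to 6310 ± 853 CPM (1.09), and HMGCS1, an enzyme early in cholesterol synthesis, from 1468 ± 202 to 3872 ± 367 CPM (1.40). GPC4, a heparan sulphate proteoglycan of the cell surface, rose from 758 ± 14.3 to 2208 ± 199 CPM, FN1, fibronectin, from 709 ± 35.1 to 1976 ± 319 CPM, and A2M, a secreted protease inhibitor, from 131 ± 8.39 to 882 ± 195 CPM. MYC, the growth-promoting transcription factor, read 4566, 3431, 4294, 3319 and 1919 CPM in NC and 553, 761, 769.7, 575 and 647 CPM in sh4 (log2 fold change -2.41, SE 0.174). The NC libraries spread more than the sh4 libraries, with NC replicate 5 the lowest and NC replicate 1 the highest, and no sh4 library reached the lowest NC value. MAT2A, which makes the methyl donor S-adenosylmethionine, read 1684, 1792, 1763, 1851 and 1994 CPM in NC and 413, 446, 452, 450.1 and 490.2 CPM in sh4 (-2.01, SE 0.0558). Here NC replicate 5 was the highest of its group, so the low MYC value of that library did not go with a low MAT2A value. FLNC, an actin cross-linker, fell from 485 ± 35.9 to 207 ± 17.1 CPM, and MMRN1, a secreted multimeric glycoprotein, from 649 ± 73.4 to 228 ± 25.8 CPM. The other large gains were FADS2 (1.17), DPYSL3 (2.02) and LRRK1 (1.29), and IFIT1, IFIT2 and KLF4, also among the large losses, are described with their groups.

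**Figure D2:**
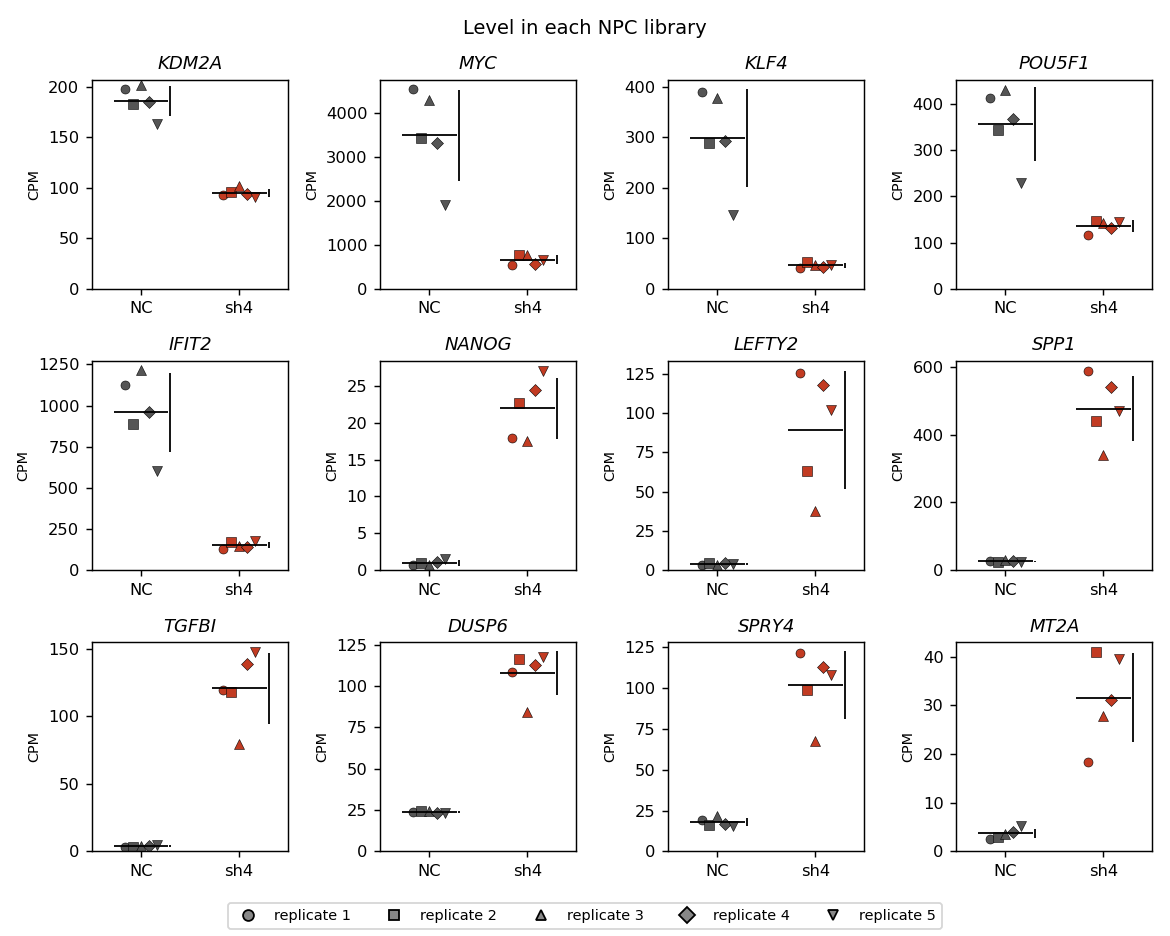
Level of 12 genes in each NPC library (y axis, CPM from 0; x axis, group; n = 5 per group); symbols give the replicate number, horizontal bars the group mean and vertical bars the SD. NC replicate 5 (downward triangles) is the lowest NC library for MYC, KLF4, POU5F1, IFIT2 and KDM2A, and sh4 replicate 3 (upward triangles) is the lowest sh4 library for NANOG, LEFTY2, SPP1, TGFBI, DUSP6 and SPRY4.

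Genes induced by ERK were among those that rose. Of 20 tested ERK feedback and target genes 8 rose (40% of them) and 1 fell, with a median log2 fold change of 0.83; none of the 20 was called between sh4 and sh1. DUSP6, a phosphatase that acts on ERK itself, read 24.1, 24.4, 24.3, 23 and 23.5 CPM in NC and 108, 116, 84.5, 113 and 117 CPM in sh4 (2.18, SE 0.0748). SPRY4, a sprouty protein, read 19.2, 16.1, 21.8, 16.7 and 15.6 CPM in NC and 121, 98.6, 67.3, 113 and 108 CPM in sh4 (2.51, SE 0.149). In both genes sh4 replicate 3 was the lowest sh4 library and lay well above the highest NC library. The ETS factors ETV4 and ETV1 rose by 2.81 and 2.18 and the phosphatase gene DUSP4 by 2.60. SPRY1, ETV5 and SPRY2 also rose (1.77, 1.51 and 1.53), and DUSP14 fell (-1.06). Without NC replicate 5 the counts were again 8 and 1.

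Of 38 tested RAS, RAF and MAP kinase genes none rose, against 6.55% of all tested genes, and 3 fell (7.89%, against 11.6%), with a median of 0.17: RPS6KA6, an RSK-type kinase downstream of ERK (-1.84), MAP3K8, a MEK kinase (-1.18), and MAPK11, a p38 kinase (-1.10). Among 18 FGF and EGF family receptors and ligands 5 rose (27.8%, against 6.55%) and 3 fell (16.7%, against 11.6%). The counts are partly fixed by the filter, as FGF4 and FGF19 missed its level in at least 1 NC library and BTC in at least 1 sh4 library. TGFA, an EGF receptor ligand, rose from 0.681 ± 0.0935 to 4.14 ± 1.3 CPM (2.59) and the receptor FGFR4 from 9.5 ± 0.887 to 25.1 ± 2.85 CPM (1.40). FGF4 and FGF19 rose from near 0: FGF4 had no count in NC replicates 1 and 3 and reached 1.04 to 2.00 CPM in sh4, and FGF19 read 0.0515 to 0.146 CPM in NC and 1.15 to 1.81 CPM in sh4. Their fitted fold changes (3.15 and 4.14) depend on the prior count. EGFR and ERBB4, receptors of the EGF family, fell (-1.16 and -1.07), as did their ligand BTC (-2.52). AP-1 and other immediate early genes respond within minutes to growth factors. Of 17 tested 3 rose (17.6%, against 6.55%) and 4 fell (23.5%, against 11.6%) with a median of -0.10. FOSB rose from 0.82 ± 0.183 to 4.32 ± 0.323 CPM, EGR2 from 2.7 ± 0.206 to 11.1 ± 0.774 CPM and IER3 from 33.5 ± 5.52 to 89.3 ± 16.3 CPM, while ATF3 fell from 159 ± 19.6 to 74.2 ± 9.56 CPM; MYC and KLF4 were the largest falls on this list.

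Pluripotency genes moved in both directions. Of the 32 listed genes 23 were tested, of which 15 rose and 3 fell. The count is partly fixed by the filter: DPPA3, GDF3, TERT, TFCP2L1, ZFP42 and ZSCAN10, all among the 15, missed its level in at least 1 NC library and passed where they were high. NANOG, a core pluripotency factor, read 0.678, 0.927, 0.655, 1.05 and 1.57 CPM in NC and 17.9, 22.6, 17.6, 24.5 and 27 CPM in sh4 (4.46, SE 0.183), and PRDM14, a regulator of pluripotency and germ cells, read 0.73, 1.18, 1.09, 1.38 and 2.35 CPM and 19.7, 23.8, 22.9, 24.3 and 24.6 CPM (4.08, SE 0.171). In NC the highest value of both genes was in replicate 5, and every sh4 library lay above it. NANOG has processed pseudogenes of near-identical sequence, so its counts may be shared with them. LEFTY2, a secreted inhibitor of NODAL, read 3.39, 4.43, 3.28, 4.64 and 4.02 CPM in NC and 126, 63.1, 37.9, 118 and 102 CPM in sh4 (4.49, SE 0.274). The sh4 libraries spread widely, with replicate 3 the lowest, but all lay above NC. TDGF1, the NODAL co-receptor, rose from 1.05 ± 0.333 to 9.36 ± 1.14 CPM, ZFP42 from 0.315 ± 0.198 to 4.16 ± 0.757 CPM, and DNMT3B, a DNA methyltransferase of early embryonic cells, from 76.9 ± 8.54 to 159 ± 17 CPM. DPPA3 had 0 to 0.0728 CPM in NC and 0.605 to 1.29 CPM in sh4.

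The 3 pluripotency genes that fell include the central factor of the network. POU5F1, which encodes OCT4, read 412, 342, 429.9, 366 and 227 CPM in NC and 115, 147, 142, 132 and 143 CPM in sh4 (-1.39, SE 0.125). KLF4 read 389, 288, 377, 293 and 146 CPM in NC and 40.9, 52.8, 47.1, 43.4 and 47.6 CPM in sh4 (-2.69, SE 0.193), and KLF5 had a fold change of -1.46. For POU5F1 and KLF4 the order of the NC libraries was nearly that of MYC: replicates 1 and 3 were highest and replicate 5 lowest, without reaching any sh4 value. Without NC replicate 5, when 24 genes of the list passed the filter, again 15 rose and 3 fell.

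Neural progenitor genes were called in both directions. Of 23 tested 7 rose (30.4%, against 6.55% of all tested genes) and 2 fell (8.7%, against 11.6%), median 0.24. SOX1, an early neural transcription factor, read 11.8, 13.2, 12.5, 13.6 and 13.9 CPM in NC and 49.7, 46.3, 54.8, 50.9 and 49.2 CPM in sh4 (1.95, SE 0.0627). FABP7, a fatty acid carrier of radial glia, rose from 5.89 ± 1.03 to 28.4 ± 2.85 CPM, PTPRZ1, a receptor phosphatase of radial glia, from 61.1 ± 5.91 to 242 ± 21.9 CPM, and PROM1 from 32.3 ± 8.32 to 118 ± 4.41 CPM. PAX6, which specifies dorsal forebrain and eye, read 17, 16.8, 16, 15.7 and 19.6 CPM in NC and 3.41, 2.85, 3.05, 3.59 and 2.97 CPM in sh4 (-2.42, SE 0.0927). With sh1 PAX6 was at 28.5 ± 1.76 CPM, and sh4 lay below sh1 by 3.16 on the log2 scale (SE 0.0907, called in the direct test).

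Several genes that mark position in the neural tube changed. Of 15 roof plate, dorsal midline and cortical hem genes 7 fell (46.7%) and 1 rose, median -0.91. WNT1, a dorsal midline ligand, read 19.1, 19.5, 17, 14.7 and 12.9 CPM in NC and 1.21, 1.09, 0.983, 1.16 and 1.13 CPM in sh4 (-3.90, SE 0.178). WNT2B, a ligand of the cortical hem, fell from 129.6 ± 14.1 to 13.1 ± 3.02 CPM (-3.31) and LMX1A, a roof plate factor, from 7.6 ± 1.36 to 1.16 ± 0.229 CPM (-2.72). RSPO1, which enhances WNT signals, fell by 2.56 and ZIC1 by 1.47 on the log2 scale. WNT8B rose from 1.79 ± 0.318 to 11.2 ± 0.981 CPM (2.64). Of these 15 genes 6 differed between sh4 and sh1 by the call rule. Of 14 forebrain patterning genes 5 fell and none rose, median -0.71, among them BARHL2 (-1.60), OTX2 (-1.25), NR2F2 (-1.14) and FEZF2 (-1.0020, at the threshold). The median of the same list was 1.04 with sh1, and 8 of the 14 were called between the hairpins.

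Of 38 listed midbrain, hindbrain and HOX genes only 7 were tested, and 5 of these rose and 1 fell. HOXA2 and PAX5, among the 5, missed the filter level in NC libraries, so the count says nothing of the list as a whole. HOXB1, a hindbrain segment gene, read 9.49, 10.6, 10.6, 9.33 and 12.4 CPM in NC and 44.1, 32.1, 36.7, 36.8 and 29.2 CPM in sh4 (1.77, SE 0.11). GBX2, an anterior hindbrain factor, rose from 1.63 ± 0.566 to 7.07 ± 1.1 CPM, HOXA2 from 0.211 ± 0.0942 to 1.49 ± 0.246 CPM and PAX5 from 0.17 ± 0.138 to 0.521 ± 0.14 CPM, and IRX6 fell from 17.6 ± 2.14 to 2.11 ± 0.425 CPM. Retinoic acid, which sets hindbrain position, is made by ALDH1A2 from the product of RDH10 and is broken down by CYP26 enzymes. Of 15 tested genes of this system 2 rose and 4 fell, and 2 of the 4 missed the filter level in at least 1 sh4 library. CYP26A1 rose from 115 ± 6.69 to 506 ± 58 CPM (2.14) and the receptor RARB rose (1.58), while CYP26C1 fell from 298 ± 24.7 to 59.6 ± 4.75 CPM (-2.33). RDH10 fell from 61.6 ± 4.74 to 17.7 ± 1.2 CPM and ALDH1A2 from 0.889 ± 0.0976 to 0.245 ± 0.101 CPM; RBP7 was the fourth gene that fell (-1.60). Thus the CYP26 genes A1 and C1 moved in opposite directions, and both differed from sh1, by 1.43 and -2.50 on the log2 scale.

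Signalling pathways of patterning were mixed. Of 37 WNT pathway genes 6 rose (16.2%, against 6.55% of all tested genes) and 9 fell (24.3%, against 11.6%), median 0.00, and 11 differed from sh1. WNT10B read 38.4, 33.8, 37.7, 33.3 and 30.2 CPM in NC and 2.03, 2.02, 2.43, 1.95 and 2.43 CPM in sh4 (-3.99, SE 0.105); the pathway target AXIN2 fell (-1.23), as did the receptor FZD10 (-2.29), while the receptor FZD8 and the secreted inhibitors SFRP1 and SFRP2 rose (1.48, 1.35 and 1.62). Of 43 NODAL, TGF-beta and BMP pathway genes 11 rose (25.6%) and 5 fell (11.6%, as over all tested genes), median 0.13. INHBA, the activin subunit, rose from 10.2 ± 1.5 to 85 ± 10.9 CPM (3.05) and the ligand TGFB1 from 10.5 ± 0.986 to 59.9 ± 7.29 CPM (2.51); the activin binding protein FST rose by 1.85, and ID3, a BMP target, fell (-2.47). Library size scaling turned the median of this list and that of the WNT list to just below 0 (-0.02 and -0.14). Of 13 Hedgehog genes 1 rose (7.69%) and 5 fell (38.5%). The pathway target GLI1 rose from 2.68 ± 0.228 to 8.05 ± 1.41 CPM, while HHIP (-2.19), DISP1 (-1.40), SCUBE3 (-1.38), SCUBE2 (-1.37) and CDON (-1.09) fell. Of 22 Notch genes 2 rose, NRARP (1.27) and HEYL (1.03), and 3 fell, DLK1 (-2.30), JAG2 (-1.23) and DTX3. These are 9.09% higher and 13.6% lower, near the shares of all tested genes (6.55% and 11.6%).

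**Figure D3:**
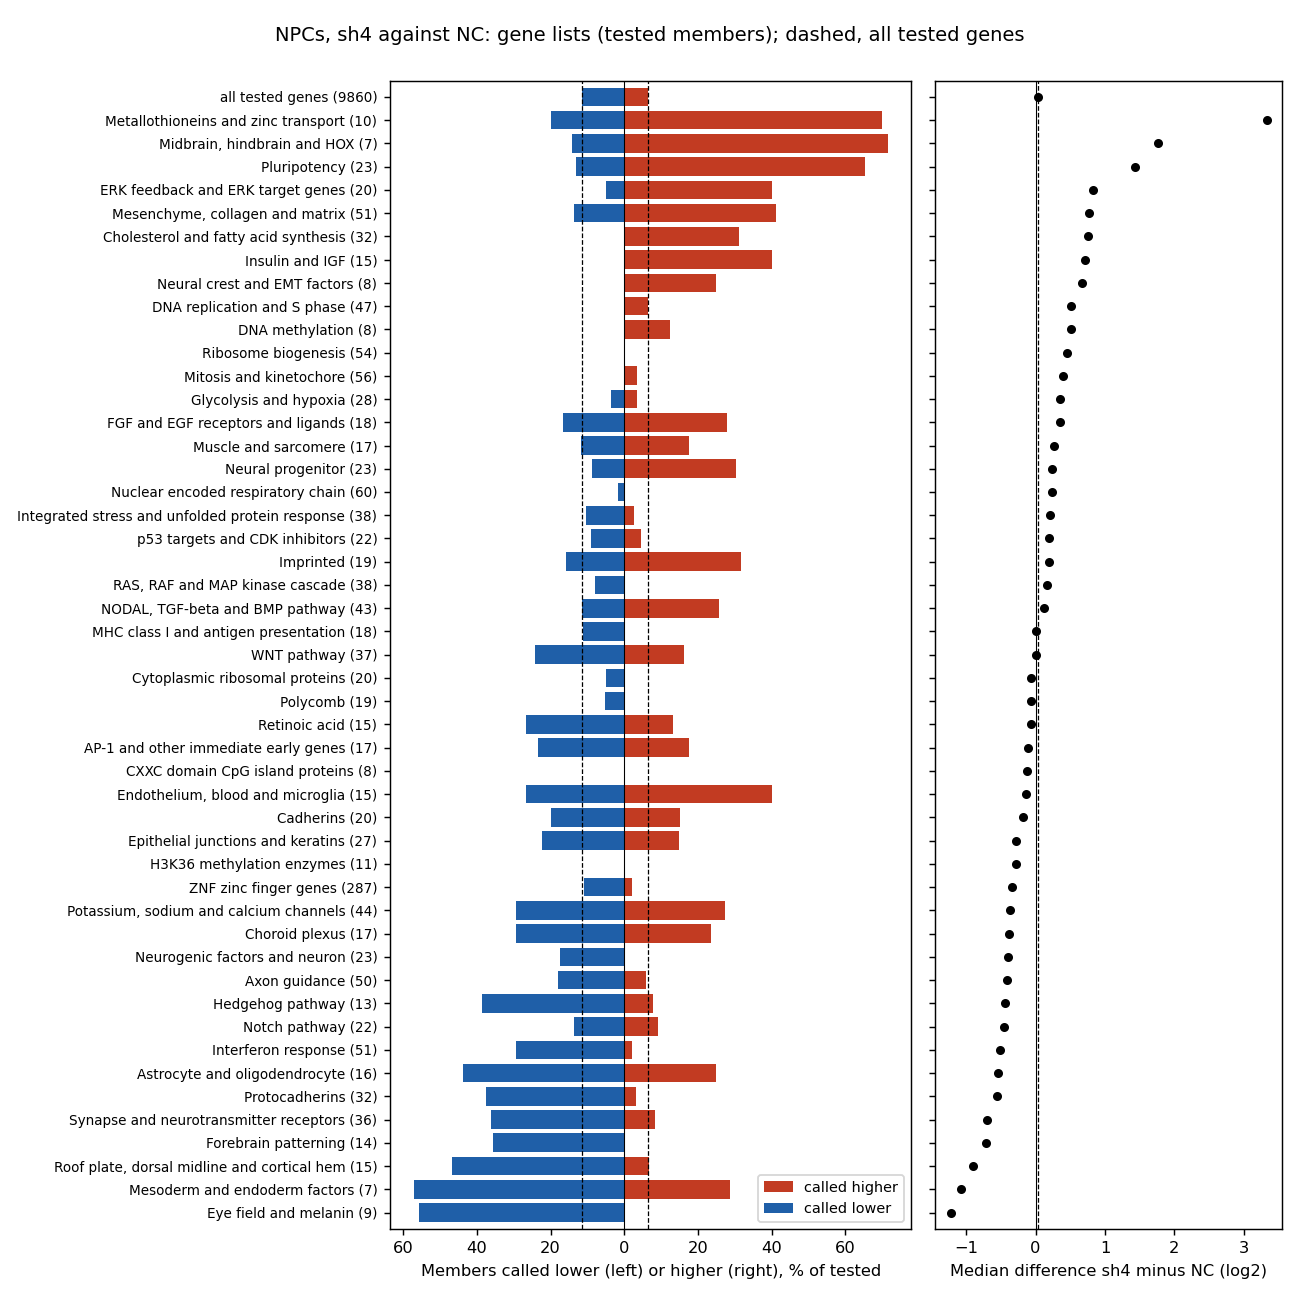
Left, percent of the tested members of each gene list called higher (red, to the right) or lower (blue, to the left) with sh4; right, the median difference sh4 minus NC of each list (log2). Numbers in brackets are tested members, which are only those that passed the filter, lists with at least 7 are shown, and dashed lines give the values over all 9860 tested genes (6.55% higher, 11.6% lower, median 0.03); metallothionein, hindbrain and pluripotency lists are at the top and eye, mesoderm and roof plate lists at the bottom.

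Several genes of neuronal differentiation and function fell. Of 23 neurogenic and neuronal genes 4 fell (17.4%, against 11.6% of all tested genes) and none rose, median -0.39. Of these 4 genes 3 missed the filter level in at least 1 sh4 library. ATOH1, which starts neuron formation in the dorsal hindbrain, read 7.04, 6.08, 4.44, 4.8 and 4.38 CPM in NC and 0.605, 0.776, 0.776, 0.475 and 0.432 CPM in sh4 (-3.11, SE 0.192). NEUROG1 fell from 1.96 ± 0.162 to 0.563 ± 0.0788 CPM, the microtubule protein gene MAPT from 9.05 ± 0.895 to 3.77 ± 0.235 CPM and CHGA from 1.15 ± 0.383 to 0.529 ± 0.149 CPM. The general neuron genes TUBB3 and DCX were not called, with log2 differences of -0.06 and -0.01. Of 36 synapse and neurotransmitter receptor genes 13 fell (36.1%) and 3 rose (8.33%, against 6.55% of all tested genes), median -0.70. Of the 13 that fell 4 missed the filter level in at least 1 sh4 library, and GRIA3, which rose, missed it in at least 1 NC library. GRIK5, a subunit of kainate-type glutamate receptors, read 23.6, 23.1, 21, 22.3 and 21.2 CPM in NC and 3.85, 4.45, 4.81, 5.02 and 5.07 CPM in sh4 (-2.26, SE 0.0921). The NMDA receptor subunit gene GRIN2A fell by 2.14 on the log2 scale, and GRIA3 rose from 0.274 ± 0.259 to 1.02 ± 0.112 CPM.

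Of 44 potassium, sodium and calcium channel genes 12 rose (27.3%, against 6.55% of all tested genes) and 13 fell (29.5%, against 11.6%), median -0.37. The counts are partly fixed by the filter. Of the 12 that rose 4 missed its level in at least 1 NC library, and of the 13 that fell 5 missed it in at least 1 sh4 library. KCNA1 fell from 9.33 ± 1.74 to 0.383 ± 0.171 CPM (-4.58) and CACNA1A from 2.29 ± 0.295 to 0.337 ± 0.171 CPM (-2.74), while KCNA6 rose from 1.73 ± 0.654 to 8.94 ± 1.06 CPM (2.34). Of 50 axon guidance genes 3 rose (6.0%, against 6.55% of all tested genes) and 9 fell (18.0%, against 11.6%). The semaphorin receptor PLXND1 rose from 38.9 ± 2.99 to 248 ± 60.7 CPM (2.67) and SEMA5A from 45.4 ± 0.336 to 124 ± 14.8 CPM. SEMA3F (-1.87), SLIT3 (-1.84) and EFNB3 (-1.39) fell. Of 32 protocadherin genes 12 fell (37.5%) and 1 rose, median -0.56. PCDHGA3 fell from 25.5 ± 1.88 to 1.77 ± 0.288 CPM (-3.84) and PCDHA6 from 19.9 ± 1.67 to 2.42 ± 0.446 CPM (-3.04). The PCDHA and PCDHG genes share their last exons within each cluster, so reads there could be split among them. Of 20 other cadherins 3 rose and 4 fell, with CDH4 at 1.69 and CDH18 at -3.46.

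Many matrix and mesenchyme genes rose. Of 51 tested 21 rose (41.2%, against 6.55% of all tested genes) and 7 fell (13.7%, against 11.6%), median 0.77. Of the 21 that rose 3 missed the filter level in at least 1 NC library, and of the 7 that fell 2 missed it in at least 1 sh4 library. By the call rule 18 of the 51 differed between sh4 and sh1. COL12A1 read 10.6, 10.4, 11.1, 12.3 and 11.7 CPM in NC and 203, 204, 165, 212 and 224 CPM in sh4 (4.16, SE 0.0796), and LUM read 9.29, 9.22, 10.6, 11.5 and 8.82 CPM and 125, 126, 137, 125 and 116 CPM (3.67, SE 0.0789). DCN, a small proteoglycan like LUM, and COL6A3 rose by 3.40 and 2.91. COL4A3 and COL14A1 fell (-3.79 and -3.10). COL3A1, the most abundant of the mesenchyme markers, was not called, at 6157 CPM with NC and 4508 CPM with sh4. Of the 8 tested markers of mesenchyme 7 rose and none fell, and their sum, in which COL3A1 dominates, was 6410 to 7137 CPM in NC and 5774 to 6616 CPM in sh4. What part such cells had in the matrix result was not tested. Of 23 listed neural crest and epithelial-mesenchymal transition factors only 8 were tested. By the call rule TWIST1 (1.64) and EDNRB (1.56) rose and none fell, while 6.55% of all tested genes rose and 11.6% fell. EDNRA was lower, just short of the fold threshold (-0.98). The crest markers SOX10, FOXD3, TFAP2A, PAX3 and SNAI2 were not tested, so the count says nothing of the list as a whole.

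Genes of other cell types gave a mixed picture. Of 9 eye field and melanin genes 5 fell and none rose, median -1.22. PMEL, a melanosome protein, read 119, 104, 123, 103 and 80.1 CPM in NC and 32.2, 22.6, 22.3, 30.3 and 23.3 CPM in sh4 (-2.02, SE 0.114), and the melanin enzyme gene TYR read 1.88 to 3.42 CPM in NC and 0 to 0.165 CPM in sh4. DCT (-2.67), OCA2 (-1.86) and RPE65 (-1.22) also fell, and the 4 tested pigment cell markers summed to 108.9 to 160.8 CPM in NC and 29.14 to 41.17 CPM in sh4. Of 17 choroid plexus genes 4 rose and 5 fell; the water channel AQP1 rose from 2.52 ± 0.628 to 22.2 ± 1.51 CPM and CLDN2 fell from 1.75 ± 0.638 to 0.299 ± 0.143 CPM. Of 16 astrocyte and oligodendrocyte genes 4 rose and 7 fell; the myelin gene MBP fell from 26.9 ± 4.45 to 3.7 ± 0.545 CPM and GFAP from 4.48 ± 0.889 to 0.992 ± 0.483 CPM. Of 15 endothelial, blood and microglial genes 6 rose and 4 fell; KDR rose from 9.39 ± 1.85 to 90.2 ± 22.8 CPM and FLT1 from 2.79 ± 0.674 to 14.9 ± 1.95 CPM, whereas the endothelial markers CDH5 and VWF fell (-1.44 and -1.99). Of 27 epithelial genes 4 rose and 6 fell, among them DSP (2.20) and ELF3 (-3.33). Of 17 muscle genes 3 rose (17.6%, against 6.55% of all tested genes) and 2 fell (11.8%, against 11.6%), with ACTN3 at 3.88 and MYH7 at -2.11. The filter partly fixed these counts too. Of the genes that rose, 2 muscle genes, ACTN3 among them, 2 choroid plexus genes and 1 glial gene missed its level in at least 1 NC library. In at least 1 sh4 library 1 muscle, 1 choroid plexus, 2 glial and 3 epithelial genes that fell missed it. So did 1 endothelial or blood gene and 1 eye gene that fell. Only 7 of 41 listed mesoderm and endoderm factors were tested. TBX2 (3.10) and FOXA3 (1.77) rose and 4 fell, among them APOB, with 0.991 to 1.82 CPM in NC and 0 to 0.106 CPM in sh4. TBX2 and FOXA3 missed the filter level in at least 1 NC library, and all 4 that fell missed it in at least 1 sh4 library. These counts therefore say nothing of the list as a whole.

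Metallothioneins are small cysteine-rich proteins that bind zinc and copper, and their genes are switched on by the zinc sensor MTF1, which binds metal response elements in their promoters. Of the 20 listed metallothionein and zinc transport genes 10 were tested. The 6 metallothioneins among them were called higher, but MT1E, MT1F, MT1G and MT1H missed the filter level in at least 1 NC library and passed where they were high, so that count is no support for the family. Among tested genes the 6 follow one another on chromosome 16 (56608199 to 56684196, GRCh38, GENCODE release 29), and genes that were not tested may lie between them. The promoters of MT2A, MT1H and MT1X, the 3 of the 6 that the RefSeq promoter table holds, are shown because MT2A and MT1X, which reached the filter level in every NC library, were both called higher. Each is the 250 bases before the start, 5′ to 3′ on the plus strand of GRCh38.p14, and capitals mark matches on either strand to the core TGCACNC or TGCGCNC.
MT2A, chr16:56608334-56608583: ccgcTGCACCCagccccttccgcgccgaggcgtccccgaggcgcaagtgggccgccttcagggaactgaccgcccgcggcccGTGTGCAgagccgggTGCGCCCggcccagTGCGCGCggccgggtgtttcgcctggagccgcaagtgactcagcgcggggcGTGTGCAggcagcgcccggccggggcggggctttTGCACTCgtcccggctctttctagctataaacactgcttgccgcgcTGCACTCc
MT1H, chr16:56669564-56669813: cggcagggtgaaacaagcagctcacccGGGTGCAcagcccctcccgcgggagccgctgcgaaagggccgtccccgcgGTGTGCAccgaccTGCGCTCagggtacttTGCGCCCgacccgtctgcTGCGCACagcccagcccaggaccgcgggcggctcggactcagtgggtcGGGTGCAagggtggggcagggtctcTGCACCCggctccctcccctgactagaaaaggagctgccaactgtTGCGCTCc
MT1X, chr16:56682220-56682469: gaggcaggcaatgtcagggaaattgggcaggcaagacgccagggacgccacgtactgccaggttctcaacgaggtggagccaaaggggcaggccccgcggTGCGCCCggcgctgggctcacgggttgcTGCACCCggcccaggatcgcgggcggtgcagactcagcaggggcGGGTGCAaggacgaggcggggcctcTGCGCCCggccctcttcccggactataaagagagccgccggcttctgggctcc
The core occurs 7 times in the MT2A window, 8 times in that of MT1H and 4 times in that of MT1X. Of all 27305 promoter windows of this length 24.7% hold at least 1 match, 0.366% at least 4 and 0.0183% at least 8. A match is a run of letters and not a measured binding site.

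MT2A read 2.66, 2.99, 3.57, 3.98 and 5.27 CPM in NC and 18.4, 41, 27.9, 31.2 and 39.5 CPM in sh4 (3.10, SE 0.256). MT1X read 0.887, 1.29, 0.874, 1.71 and 2.5 CPM in NC and 11.3, 29.1, 20.3, 18.2 and 27.5 CPM in sh4 (3.84, SE 0.335). In both, sh4 replicate 1 was the lowest and replicate 2 the highest of the sh4 libraries, and NC replicate 5 was the highest NC library. MT1E read 0.417 to 1.41 CPM in NC and 7.75 to 17.4 CPM in sh4, and MT1F read 0.291 to 0.515 CPM in NC and 3.74 to 5.88 CPM in sh4. MT1G and MT1H had no count in NC replicate 3 and reached 3.74 to 8.38 and 2.22 to 3.67 CPM in sh4, so their fitted fold changes (4.50 and 3.96) depend on the prior count. These genes are near-identical copies, and reads could be split among them. Of the 4 zinc transporters tested, SLC39A8, an importer, rose (1.13), SLC30A10 (-2.12) and SLC30A4 (-1.28) of the exporter family fell, and the importer SLC39A14 was not called (0.51).

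Some interferon response genes fell. Genes of this response answer viral RNA and interferon through a complex that holds STAT2 and IRF9 and binds the interferon-stimulated response element. Of 51 tested 15 fell (29.4%) and 1 rose, median -0.51 (-1.07 with sh1, which was compared with the same NC libraries). The promoters of IFIT1, IFIT3 and ISG15, all among the genes that fell, are shown with matches to the core GAAA, any 2 bases, GAAA, on either strand and with overlaps kept, in capitals (250 bases before the start, plus strand, GRCh38.p14, RefSeq).
IFIT1, chr10:89392373-89392622: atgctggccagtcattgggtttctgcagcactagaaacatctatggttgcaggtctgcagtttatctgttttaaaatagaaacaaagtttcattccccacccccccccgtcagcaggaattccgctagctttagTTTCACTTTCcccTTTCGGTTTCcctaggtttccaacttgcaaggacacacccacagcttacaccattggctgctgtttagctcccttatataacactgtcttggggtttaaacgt
IFIT3, chr10:89327747-89327996: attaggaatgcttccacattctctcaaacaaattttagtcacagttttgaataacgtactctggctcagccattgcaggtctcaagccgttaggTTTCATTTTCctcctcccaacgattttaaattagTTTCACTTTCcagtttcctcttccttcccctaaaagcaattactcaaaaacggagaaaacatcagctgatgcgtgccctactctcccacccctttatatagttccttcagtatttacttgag
ISG15, chr1:1013247-1013496: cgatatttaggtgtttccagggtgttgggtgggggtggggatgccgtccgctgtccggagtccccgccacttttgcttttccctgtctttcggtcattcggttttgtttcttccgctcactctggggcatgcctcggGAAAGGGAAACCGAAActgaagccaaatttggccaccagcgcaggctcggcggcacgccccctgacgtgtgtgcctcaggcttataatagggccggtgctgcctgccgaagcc
Each of the 3 windows holds 2 matches. The core stands in 8 of the 11 fallen genes with a promoter in the table and in 14 of the 29 genes of the list that were not called, against 3.07% of all promoters, and 0.227% of all hold at least 2.

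IFIT2, an RNA-binding antiviral protein, read 1125, 889, 1216, 962 and 601 CPM in NC and 129, 168, 146, 141 and 180.1 CPM in sh4 (-2.65, SE 0.151). IFIT1 read 752, 686, 821, 720.3 and 544 CPM in NC and 177, 224, 213, 194 and 219 CPM in sh4 (-1.78, SE 0.0989). In both genes NC replicates 1 and 3 were highest and NC replicate 5 lowest, and the groups did not overlap. IFIT3 fell from 265 ± 35.2 to 79.3 ± 9.06 CPM (-1.74), EPSTI1 from 21 ± 1.94 to 4.32 ± 0.648 CPM (-2.28) and IRF7, a transcription factor of the interferon loop, from 15 ± 1.67 to 4.69 ± 0.295 CPM (-1.67). ISG15, a ubiquitin-like modifier, and IFIH1, a sensor of double-stranded RNA, fell by 1.44 and 1.38 on the log2 scale. MX2 rose (1.53), and for STAT2 the log2 difference was -0.24, not called. Without NC replicate 5 the list had 14 genes lower and 1 higher. Of 18 MHC class I and antigen presentation genes ERAP2 (-1.08) and TAPBPL (-1.08) fell and none rose. That is 11.1% lower, near the 11.6% of all tested genes.

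No gene of sterol and fatty acid synthesis fell by the call rule. Of 32 tested 10 rose (31.2%) and none fell, median 0.76, and 30 of the 32 were higher at an adjusted p under 0.05 with or without the fold threshold met, against 44% of all tested genes. ACSS2, which makes acetyl-CoA, read 84.9, 89.1, 87.6, 91.8 and 100.1 CPM in NC and 299.8, 283, 236, 303 and 261 CPM in sh4 (1.61, SE 0.0634). ACAT2, an early enzyme of the sterol branch, rose from 168 ± 16.9 to 465 ± 17.8 CPM and the desaturase gene FADS1 from 316 ± 84.8 to 786 ± 44.3 CPM. The rise of SCD was no longer called with library size scaling, under which 8 genes of the list rose.

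Most proliferation and ribosome biogenesis genes differed by less than the fold threshold. Of 47 DNA replication and S phase genes 44 were higher at an adjusted p under 0.05 and none lower, median 0.52, but only CCNE2 (1.41), CDC6 (1.37) and RRM2 (1.29) passed the fold threshold. Without NC replicate 5 there were 6 such genes. Of 56 mitosis genes 45 were higher and 3 lower by the adjusted p, median 0.40, and CENPW (1.25) and CENPH (1.06) were called. Of 54 ribosome biogenesis genes 47 were higher and 3 lower by the adjusted p, median 0.46, with none called. Of 20 cytoplasmic ribosomal protein genes RPL10L alone was called (-1.58), and the median was -0.06. Of 60 nuclear encoded respiratory chain genes 42 were higher and 8 lower by the adjusted p (median 0.24), with 1 called, the read-through gene NDUFC2-KCTD14 (-1.79). With library size scaling, which shifted the overall median by -0.14, the medians above 0 in this paragraph stayed above 0.

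Of 38 integrated stress and unfolded protein response genes 1 rose (2.63%) and 4 fell (10.5%), and of 22 p53 targets and cell cycle inhibitors 1 rose (4.55%) and 2 fell (9.09%), shares near the 6.55% and 11.6% of all tested genes. PPP1R15A, which reverses the block of translation, read 249, 258, 248, 242 and 244 CPM in NC and 64.1, 68.9, 55.1, 70.2 and 75.8 CPM in sh4 (-1.89, SE 0.0712), and DDIT3, the factor CHOP, fell from 102 ± 23.3 to 34.7 ± 5.35 CPM (-1.56); NUPR1 rose from 8.24 ± 1.57 to 23.3 ± 2.36 CPM. Among the p53 targets and inhibitors CDKN2A rose (1.08) and BBC3 (-1.12) and GADD45G (-1.30) fell. Of 28 glycolysis and hypoxia genes PGAM1 rose (1.04) and CA12 fell (-2.06), 3.57% in each direction.

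Of 19 Polycomb genes 1 fell (5.26%, against 11.6% of all tested genes) and none rose, median -0.06. Of 8 DNA methylation genes DNMT3B rose and none fell, and its call was lost with library size scaling and without NC replicate 3. Of 287 tested genes with a ZNF symbol 31 fell (10.8%, close to the 11.6% of all genes) and 6 rose (2.09%), with a median of -0.33. ZNF512 read 24.9, 25.3, 23.9, 27.4 and 27.4 CPM in NC and 1.59, 1.45, 1.6, 1.64 and 2.00 CPM in sh4 (-3.96, SE 0.0895), while with sh1 it was at 34.7 ± 1.58 CPM. ZNF154 fell from 43 ± 6.31 to 2.4 ± 0.43 CPM, ZNF536 from 1.91 ± 0.156 to 0.075 ± 0.0485 CPM, and ZNF469 rose from 0.749 ± 0.152 to 6.85 ± 0.352 CPM. Of 19 imprinted genes 6 rose and 3 fell: NNAT rose from 82.8 ± 14.6 to 234 ± 15.5 CPM, PHLDA2 from 1.05 ± 0.12 to 5.61 ± 0.721 CPM and the growth factor IGF2 from 23.7 ± 1.86 to 63.6 ± 4.02 CPM, and DLK1 fell from 160.3 ± 9.51 to 32.5 ± 3.76 CPM, NLRP2 from 86.7 ± 7.4 to 21.2 ± 2.66 CPM and RTL1 from 6.74 ± 1.3 to 2.22 ± 0.356 CPM. SNRPN and SNURF rose (1.44 and 1.49), but they share a transcript and their counts are not independent. Of 15 insulin and IGF genes 6 rose (40.0%, against 6.55% of all tested genes) and none fell, median 0.72. After IGFBP3 and IGF2 these were PAPPA, a protease that frees IGF from its binding proteins (2.60), IGFBP4 (1.81), IGFBP7 (1.60) and INSR (1.10). INSR missed the filter level in at least 1 NC library. Of 6 genes of natriuretic peptide signalling NPR3, NPR1 (3.27) and PRKG1 (1.203) rose and none fell.

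The direct comparison of sh4 with sh1 sets the means of these groups against each other, and the NC libraries entered only through the filter, the scaling and the spread of the joint fit. It called 454 of 9860 genes (4.6%), 239 higher (2.42%) and 215 lower (2.18%) with sh4. Of the 646 genes that rose with sh4 against NC 106 were also higher than with sh1, and of the 1140 that fell 148 were also lower, both tests using the same sh4 libraries. With only the 2 groups of each comparison in the fit, 235 genes were higher and 190 lower with sh4 than with sh1, and 227 differed from NC and from sh1 in the same direction. Among genes that rose against NC and had a mean of at least 3 log2 CPM, IGF2 had the highest difference: it read 22.4, 26.7, 22.3, 22.7 and 24.5 CPM in NC and 59, 61.6, 69.7, 64.9 and 62.9 CPM in sh4, and 7.23 ± 1.83 CPM with sh1 (3.13 on the log2 scale, SE 0.12). LEFTY2 (2.86), TGFBI (2.84), SSUH2 (2.61), NPR3 (2.46), STC1 (2.43), NNAT (2.26), CMKLR1 (2.26), LUM (2.21) and OPRK1 (2.16) followed. SSUH2 read 11.8, 14.2, 13.2, 14.3 and 14.6 CPM in NC and 109.6, 106, 96.9, 109 and 112 CPM in sh4, and 17.5 ± 2.46 CPM with sh1, which put it near NC with sh1.

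Below both NC and sh1 stood CFTR, at 16 ± 4.08 CPM with sh1 (-3.21 for sh4 minus sh1), PWWP3B (-2.94), WNT10B (-2.81), NLRP2 (-2.75), CNTN6 (-2.62), WNT2B (-2.58), CYP26C1 (-2.50), LIX1 (-2.44), ZNF154 (-2.43) and CNKSR2 (-2.23). CYP26C1, which degrades retinoic acid, read 279, 311, 268, 304 and 329 CPM in NC and 65.8, 52.6, 60.8, 60.03 and 58.5 CPM in sh4, with 337 ± 44.7 CPM with sh1. NLRP2 read 90.7, 87.8, 93, 88.2 and 74 CPM in NC and 24.5, 18.4, 19, 23.4 and 20.8 CPM in sh4, with 143 ± 8.48 CPM with sh1. Both genes were thus low with sh4 and not with sh1.

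In all, 10 genes were called in opposite directions against the shared NC libraries. IGF2, STOML3 and DDX53 rose with sh4 (1.42, 1.18 and 2.62) and fell with sh1 (-1.71, -1.34 and -2.56). LMX1A fell with sh4 and rose with sh1 (-2.72 and 1.55), as did KLF8 (-3.01 and 1.36), DCAF12L1 (-2.86 and 1.51), ASTN1 (-2.23 and 1.81), SLITRK4 (-1.41 and 1.46), GATA3 (-1.16 and 1.04) and HBE1 (-1.0034 and 1.11). ASTN1, DCAF12L1, GATA3 and DDX53 were below 1 CPM in every NC library, and HBE1 lies at the fold threshold.

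**Figure D4:**
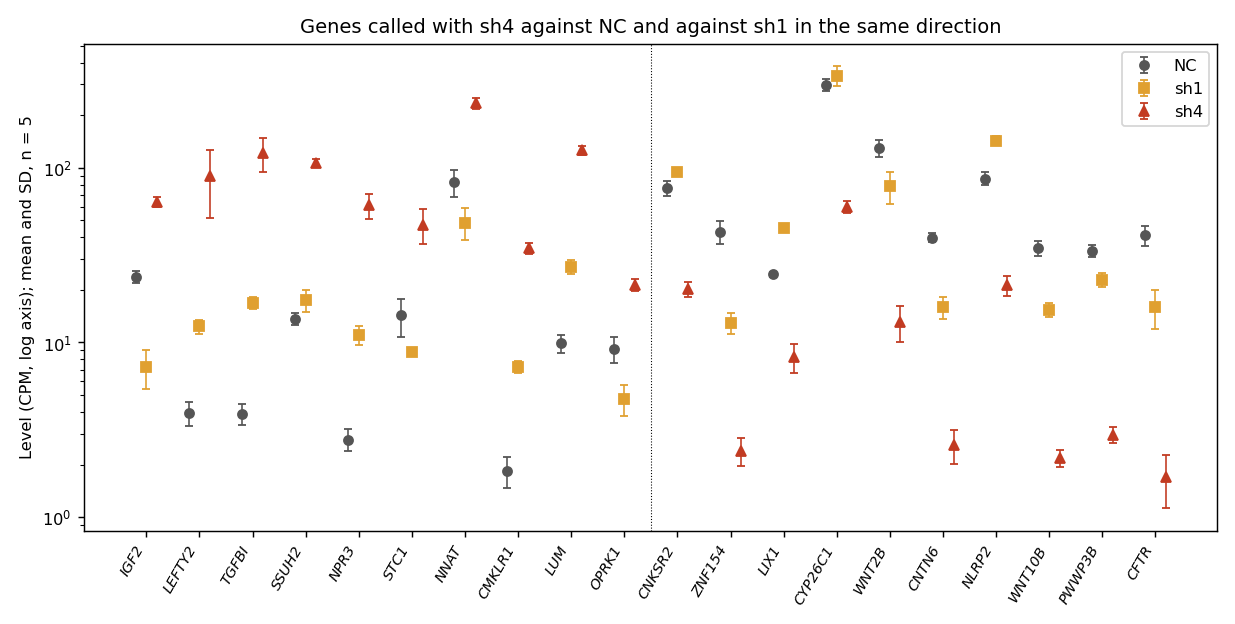
Level (y axis, CPM, log axis; mean and SD, n = 5) with NC (grey circles), sh1 (orange squares) and sh4 (red triangles) of the 20 genes named for the difference between sh4 and sh1. Left of the dotted line sh4 is above both other groups, as for IGF2 at 63.6 CPM against 23.7 with NC and 7.23 with sh1; right of it sh4 is below both, as for CFTR at 1.7 CPM.

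In the organoids the libraries labelled sh4 did not show a lower KDM2A level, with a log2 difference from their own NC libraries of 0.01 (SE 0.068), so directions there rest on the labels alone. Of 9577 genes tested in both systems 30.5% were called in the organoids, 17.3% higher and 13.1% lower. Of the 593 of these genes that rose in the NPCs 208 (35.1%) were higher and 161 (27.2%) lower in the organoids labelled sh4. Of the 1044 that fell in the NPCs 190 (18.2%) were lower and 420 (40.2%) higher there. Genes that changed in the NPCs were called more often than the background in both directions in the organoids.

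Genes called in the same direction in both systems include A2M (log2 fold change 2.75 in the NPCs and 5.48 in the organoids), TFPI2, a protease inhibitor of the matrix (2.44 and 5.38), COL12A1 (4.16 and 3.34) and TGFBI (4.96 and 3.89). Among those lower in both were POU5F1 (-1.39 and -8.41), CNKSR2, a scaffold of RAS signalling (-1.92 and -2.76), and ADCYAP1R1, a neuropeptide receptor (-2.94 and -2.04). Others went the opposite way: NANOG, higher in the NPCs, had -8.38 in the organoids, and CFTR and CNTN6, lower in the NPCs, had 4.79 and 4.04. DUSP6, at 0.17, was not called in the organoids. Fitted values as low as those of NANOG and POU5F1 depend on the prior count, since these genes had few or no counts in the organoids labelled sh4.

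**Figure D5:**
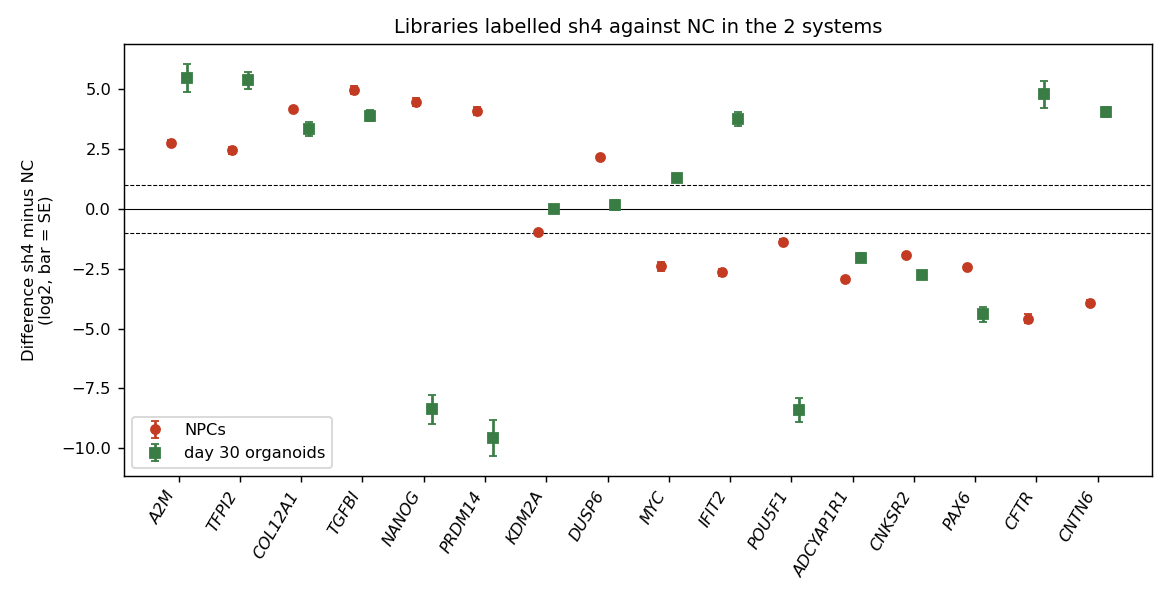
Log2 difference between libraries labelled sh4 and NC (y axis; bars, SE) in NPCs (red circles, n = 5 per group) and day 30 organoids (green squares, n = 3 per group) for 16 genes; dashed lines mark the fold threshold. TGFBI, COL12A1 and POU5F1 lie on the same side of 0 in both systems, while NANOG, PRDM14, MYC, IFIT2, CFTR and CNTN6 lie on opposite sides, and KDM2A is at 0.01 in the organoids.

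At the edge of the fold threshold stood APOC1 (1.0021), GLRX2 (1.0001) and FEZF2 (-1.0020), just past it, and EFNB1 (-0.9999), CCDC71L (-0.9990) and SPINT2 (-0.9984), just short of it.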

How the data were processed

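RNA-seq of NPCs (5 libraries each of NC, sh1 and sh4) and of day 30 organoids (3 each) was used. The authors deposited expected counts per gene; 82.4% of the NPC values are whole, and STAR, featureCounts and GRCh38.p13 are named per the submitters' processing notes, whose versions are not given in the sources used here. Counts were rounded. Genes were kept by edgeR's filterByExpr (minimum count 10), scaled by TMM and tested with edgeR 4.0.16 (R 4.3.3) in a quasi-likelihood fit over all 15 NPC libraries, with Benjamini-Hochberg adjustment over all 9860 genes; organoids were fitted apart. DESeq2 1.42.0, RLE scaling, library size alone, no filter, the 2 groups only, a replicate block and leaving out each library were alternatives. The fit was checked on simulated counts.

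The members and gene lists were chosen with earlier results of these data known. Named genes were KDM2A, the largest fold changes at a mean of at least 3 log2 CPM, the largest gains and losses of CPM, the largest differences from sh1, genes opposite to sh1, up to 5 called members of each list (any member of lists with 12 or fewer tested), the largest changes shared with organoids and genes nearest the fold threshold. These were named after their values were seen: NES, SPRY1, SPRY2, ETV5, DUSP14, EGFR, ERBB4, KLF5, ZIC1, RARB, AXIN2, FZD8, FZD10, SFRP1, SFRP2, FST, ID3, CDON, TUBB3, DCX, DCN, COL6A3, COL14A1, COL3A1, STAT2, ISG15, IFIH1, MX2, SNRPN, SNURF and INSR. Some genes are not reported here. Promoters come from RefSeq (GRCh38.p14).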

Additional observations from a re-analysis of the deposited data

Results flagged for a closer look

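Single libraries stood apart from the other 4 of their group for 19 of 482 gene and group pairs examined (3.94%), by a gap to the nearest library of more than 0.71 of the range; chance gives such a gap in about 1 in 20 groups. NC replicate 5 was that library 6 times, the highest 3 times and the lowest 3 times. It was the highest NC library for FST (173 CPM), PTPRZ1 (71.6 CPM) and FLT1 (3.97 CPM), and the lowest for NLRP2 (74 CPM), EPSTI1 (17.6 CPM) and TGFB1 (8.77 CPM). The other NC values were TWIST1 at 1.51 CPM and SLITRK4 at 3.91 CPM in replicate 1, ETV5 at 19.9 CPM, the lowest, and BTC at 1.03 CPM in replicate 2, and ACTN3 at 1.02 CPM in replicate 3.

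Among the sh4 libraries, replicate 3 was apart for DUSP4 (122 CPM) and DUSP6 (84.5 CPM), both the lowest of the group, and for DCX (56.8 CPM, the highest). Replicate 5 was the highest for DLK1 (39 CPM), GLI1 (10.5 CPM) and NEUROG1 (0.702 CPM), replicate 4 for DCAF12L1 (0.211 CPM), and replicate 1 for CLDN2 (0.55 CPM). What set these values apart was not tested.

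The difference between libraries labelled sh4 and NC itself differed between NPCs and organoids in a test of that difference in 1 joint fit of the NPC and organoid tables (edgeR quasi-likelihood test, p adjusted by Benjamini-Hochberg). For KDM2A the NPC value minus the organoid value was -0.98 on the log2 scale. For the genes called the same way in both systems it was 7.02 for POU5F1, 1.06 for TGFBI, 0.83 for CNKSR2, 0.82 for COL12A1, -0.91 for ADCYAP1R1, -2.74 for A2M and -2.95 for TFPI2. Without organoid NC replicate 3 the COL12A1 difference was 0.49 and did not pass (adjusted p = 0.058). Without organoid sh4 replicate 3 that of ADCYAP1R1 was -0.59 and still passed (adjusted p = 0.00945). These genes were chosen for calls in both systems, so their common direction is no finding, and NPC and organoid libraries were deposited in separate tables.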

How the results depend on the processing

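Every count of called genes over the whole table stayed within 1.5 times the value given: with sh4 against NC 523 to 706 genes were higher and 1137 to 1434 lower over all the settings tried, and no gene called in the main setting was called in the opposite direction. Library size alone gave 523 and 1434, and no count filter 706 and 1351. Library size alone moved the median of all genes by -0.14 and the share of higher calls from 36.2% to 26.7%. KDM2A was called with library size alone (-1.11) and without NC replicate 5 (-1.01), and leaving out each library in turn gave -0.94 to -1.01. Small differences that turned with library size alone were ETS1 (-0.0352), KDM2B (-0.0906), KDM4A (-0.106), RAB27A (-0.00387) and SETD5 (-0.0867); the cause was not tested. CDKN2A, CENPH, DNMT3B, HEYL, PGAM1, SCD and SLC39A8 were no longer called under that setting. Leaving out NC replicate 3 ended the calls of CENPH (0.987), DNMT3B (0.993), HEYL (0.995) and TAPBPL (-0.932), and leaving out sh4 replicate 4 those of HEYL (0.99) and CHGA (-0.968). TAPBPL was also lost without sh4 replicate 1 (-0.936) or 3 (-0.892), CHGA without NC replicate 5 (-0.962), MAPK11 without sh4 replicate 2 (-0.993), and GATA3 without NC replicate 1 (-0.911) or sh4 replicate 2 (-0.99) or 5 (-0.924). APOC1, GLRX2, FEZF2 and HBE1, at the fold threshold, were lost without any of several single libraries. Calls of the sh4 against sh1 comparison ran from 228 to 252 higher and from 190 to 243 lower.

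The deviations of same-numbered NC and sh4 libraries from their group means correlated at 0.241, 0.124, 0.0582, 0.107 and 0.277 for replicates 1 to 5. Pairs with unlike numbers ran from -0.277 to 0.23. NC replicates 1, 2, 4 and 5 each correlated best with the sh4 library of the same number. Whether the numbers mark shared cultures was not tested, and the main fit has no replicate block. With the replicate number as a block 647 genes rose and 1142 fell. NC replicate 3 correlated best with sh4 replicate 1. Genes with few or no counts in 1 group have fitted fold changes that depend on the prior count.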

Other observations

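Some called genes followed one another among the tested genes of a chromosome, and genes that were not tested may lie between them. Positions are from GENCODE release 29 on GRCh38. The runs were picked after their values were seen and have no test. The longest run of neighbouring tested genes that all rose held 7 genes on chromosome 6, from 45328157 to 47309905: RUNX2, a bone transcription factor (2.97), ENPP4 (1.73), ENPP5 (3.23), CYP39A1 (1.64), SLC25A27 (1.21), ADGRF5 (2.59) and TNFRSF21 (1.28). On chromosome X, from 132023265 to 133415490, STK26 (1.11), FRMD7 (1.06), HS6ST2 (1.09) and GPC4 (1.54) rose. On chromosome 19, from 50723329 to 51417803, CLEC11A (1.94), IGLON5 (1.62), VSIG10L (1.12) and SIGLEC10 (1.03) rose.

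A run of tested genes that fell held the chemokine genes CXCL5 (-1.40), CXCL3 (-1.20) and CXCL2 (-2.46) and then BTC (-2.52), on chromosome 4 from 73995642 to 74794686. Another held COBLL1 (-1.78), SLC38A11 (-4.23), SCN3A (-1.53) and GALNT3 (-1.40), on chromosome 2 from 164653624 to 165794682. On chromosome 7, from 73699206 to 74069907, STX1A (-1.03), ABHD11 (-1.12), CLDN3 (-2.14), CLDN4 (-1.03) and ELN (-1.64) fell. On chromosome 15, from 30135149 to 30614561, 4 GOLGA8 genes and CHRFAM7A (-1.27) fell; the GOLGA8 genes are near-identical copies, and reads could be split among them. By chromosome the share of tested genes that fell ran from 7.34% on chromosome 20 to 14.9% on chromosome 4, and the share that rose from 3.96% on chromosome 14 to 14.4% on chromosome 21.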
